A study of Xenopus laevis with 12 samples.

Results

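The transcripts described here are those of centrosome, spindle and chromosome segregation genes among RNAs immunoprecipitated from Xenopus laevis oocytes. Members were chosen by gene name: cyclins A, B and E, mitotic kinases and the chromosomal passenger complex, kinetochore and checkpoint genes, cohesin, kinesins, augmin, centrosomal cep genes, cdc and cdca genes and the replicative helicase. The rule took 53 gene identifiers, which carry 50 names and 38 symbols, out of 3964 named genes and 51061 genes in the count files. The only source of names was the pair of tables of enriched RNAs that the authors deposited, so that a gene of the same pathway outside them has no name here. RefSeq's gene table for assembly Xenopus_laevis_v10.1 holds 342 genes of the rule, and 49 members matched it by name.

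The oocytes were pooled over stages II and III. Their lysate was fractionated by size on a column, the fractions rich in L-bodies were combined, and RNA was precipitated with an hnRNPab antibody, a Staufen antibody or control IgG. The 12 libraries, 4 for each antibody, are named here by their labels. Whether replicates came from separate frogs is not stated, so that a p-value covers only the variation among the libraries at hand, and that may be technical variation.

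L-bodies are condensates of RNA and protein in which vegetally localized mRNAs travel through the oocyte cytoplasm, and both Staufen and hnRNPab bind RNA and take part in that transport. A growing oocyte is arrested in meiotic prophase while it stores maternal mRNAs for the cell divisions that follow fertilization. Cyclins and their kinases drive entry into division, the centrosome and its microtubules build the spindle, kinetochores attach chromosomes to it, and cohesin holds sister chromatids together until they separate.

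Gene counts per library ran from 14147584 to 22103431, and levels are given as CPM, counts of a gene per 1000000 gene counts of the library after TMM scaling. A gene without counts could have had 3, equal to 0.136 to 0.212 per 1000000 gene counts before TMM scaling, when only counting error is considered. Libraries numbered 1 stood apart from those numbered 2, 3 and 4 in each group, and the main counts are therefore also given without them. The share of singly aligned reads that fell outside annotated exons was 11.01% to 12.88% in hnRNPab-labelled libraries, 13.44% to 14.79% in Staufen-labelled libraries and 16.86% to 19.63% in IgG-labelled libraries. This share moved with the antibody label, and its part in the results was not tested. Of 23 oocyte markers looked up, 5 are named, and vegt.S, the mRNA of a vegetally localized transcription factor, had 215 to 256 CPM in hnRNPab-labelled libraries, 135 to 187 CPM in Staufen-labelled libraries and 89.8 to 132 CPM in IgG-labelled libraries. Of the other 4, gdf9.L, wnt11b.L and mael.L also had their highest value in an hnRNPab-labelled library and their lowest in an IgG-labelled one. The oocyte kinase transcript mos.L stood the other way, at 356 to 441 CPM in hnRNPab-labelled libraries, 454 to 598 CPM in Staufen-labelled libraries and 695 to 820.0 CPM in IgG-labelled libraries. The oocyte markers thus moved with the label in both directions, and their part in the results was not tested. Of 16 follicle and theca markers 1 is named, foxo1.L. It had 40.0 to 53.4 CPM in hnRNPab-labelled libraries, 50.3 to 72.6 CPM in Staufen-labelled libraries and 48.1 to 72.7 CPM in IgG-labelled libraries. These ranges overlapped, with the lowest values under the hnRNPab label, and the part of foxo1.L in the results was not tested. Of 15 blood and vessel markers 1 is named, slc4a1.L, at 104 to 163 CPM in hnRNPab-labelled libraries, 27.0 to 40.5 CPM in Staufen-labelled libraries and 25.0 to 35.7 CPM in IgG-labelled libraries. The level of slc4a1.L, an anion exchanger of red blood cells, moved with the label, and its part in the results was not tested.

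The authors listed 41 of the 53 members as enriched with Staufen alone, 9 with hnRNPab alone and 3 with both. All named genes were divided 1999, 1511 and 454 among the same 3 classes. The lists were made from this study's libraries, so that counts and medians of members describe the selection as well as the libraries. The same holds for the difference and the p-value of each single gene below, which are descriptions and not independent tests. In the authors' deposited Staufen table the lowest member was ccnb1.S at a log2 fold change of 0.86, followed by cdc27.L at 0.88 and cdc27.S at 0.89, with a lowest value in the table of 0.85. In the authors' deposited hnRNPab table the lowest members were kif1b.S at 0.88, cdca5.L at 0.90 and bub3.S at 0.92.

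The deposited values and the labelled libraries differed for these genes, for most of the Staufen list in size and for the list of hnRNPab alone in direction. Of the 41 members listed with Staufen alone, 34 were above 0 in Staufen minus IgG. Of the 9 listed with hnRNPab alone, 0 were above 0 in hnRNPab minus IgG. The 3 listed with both were above 0 in each of these. Over all 1974 tested genes listed with Staufen alone, the median of Staufen minus IgG was 0.07. Over all 1482 listed with hnRNPab alone, the median of hnRNPab minus IgG was -0.95. The mismatch was thus not particular to the members. Shares above 0 and gaps over the whole lists were not computed. The 44 members of the authors' deposited Staufen table differed from the Staufen minus IgG values of the labelled counts by a median of 1.22 on the log2 scale, and 43 of the 44 were under the table's lowest value in that comparison. The same members differed from the hnRNPab minus IgG values by a median of 0.33 and from the hnRNPab minus Staufen values by a median of 0.26. The 12 members of the authors' deposited hnRNPab table differed from the hnRNPab minus IgG values by a median of 1.32, and 11 of the 12 were under that table's lowest value there. Their median gap was 0.72 to the IgG minus hnRNPab values and 0.68 to the Staufen minus hnRNPab values. For the 3 members in both tables, the authors' Staufen value minus their hnRNPab value lay close to the hnRNPab-labelled minus IgG-labelled difference. The pair of values was 1.53 and 1.51 for rad21.S, 0.70 and 0.69 for cenpn.L, and 0.11 and 0.10 for bub3.S. No labelled comparison gave back the deposited values themselves. Whether labels of the libraries or headings of the tables were exchanged, or the tables used another control, was not tested. Every direction below follows the labels of the libraries.

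All 53 members passed the filter on low counts. The hnRNPab-labelled libraries held more of most of these transcripts than the IgG-labelled libraries. With edgeR's quasi-likelihood test at an adjusted p of 0.05 over all genes tested, 42 members were higher in hnRNPab-labelled than in IgG-labelled libraries, where 16.3% of the 20803 tested genes were higher. Another 6 members were lower, where 17.4% of tested genes were lower, and 5 did not pass. The median difference was 1.39 on the log2 scale, with a range of -2.05 to 2.90, against a median of -0.02 over all genes tested. Against Staufen-labelled libraries, 41 members were higher (16.3% of all genes), 6 were lower (16.5% of all genes) and 6 did not pass, with a median of 1.20. With the replicate number as a block, 43 members were higher (31.3% of all genes) and 8 lower (33.3%) against IgG, and 45 were higher (31.5%) and 8 lower (33.1%) against Staufen. The 2 comparisons share the hnRNPab-labelled libraries. Without the 3 libraries numbered 1, 43 members were higher (18.5% of all genes) and 7 lower (18.6%) against IgG, and 40 were higher (18.1%) and 7 lower (18.8%) against Staufen. Values are shares of the RNA in each precipitate, so that more of a transcript and less of the rest cannot be told apart.

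The division followed the authors' lists. Of the 41 members listed with Staufen alone, 40 were higher in hnRNPab-labelled than in IgG-labelled libraries, as were 83.0% of all 1974 tested genes listed that way. Their median was 1.45, against 0.96 for all genes of that list. Of the 9 members listed with hnRNPab alone, 6 were lower, as were 82.9% of 1482 tested genes listed that way, with medians of -0.51 for the members and -0.95 for the list. Of the first list 0 of the 1974 were lower, and of the second 0 of the 1482 were higher, so that a direction went with its list. Against Staufen-labelled libraries 39 of the 41 were higher (80.0% of that list) and 6 of the 9 were lower (55.6% of that list).

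Between Staufen-labelled and IgG-labelled libraries the same transcripts differed by smaller steps, and the number called depended on the use of the replicate block. Here edgeR without the block called 5 members higher, where 4.45% of all genes were higher, and 0 lower, where 3.33% of all genes were lower. Of the 41 members listed with Staufen alone 4 were higher, where 8.16% of tested genes of that list were. Of the 9 listed with hnRNPab alone 0 were lower, where 21.1% of that list were. At an unadjusted p under 0.05, 10 members were higher (9.83% of all genes) and 1 was lower (9.28%). DESeq2 called 7 higher and 1 lower, where 8.07% and 7.19% of the 17137 genes with an adjusted p were called. The median difference was 0.14, against -0.01 over all genes. With the replicate number as a block, edgeR called 23 members higher (19% of all genes) and 8 lower (20.5% of all genes). Without the 3 libraries numbered 1 and without a block, 7 members were higher (6.49% of all genes) and 3 lower (6.04%).

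**Figure D1:**
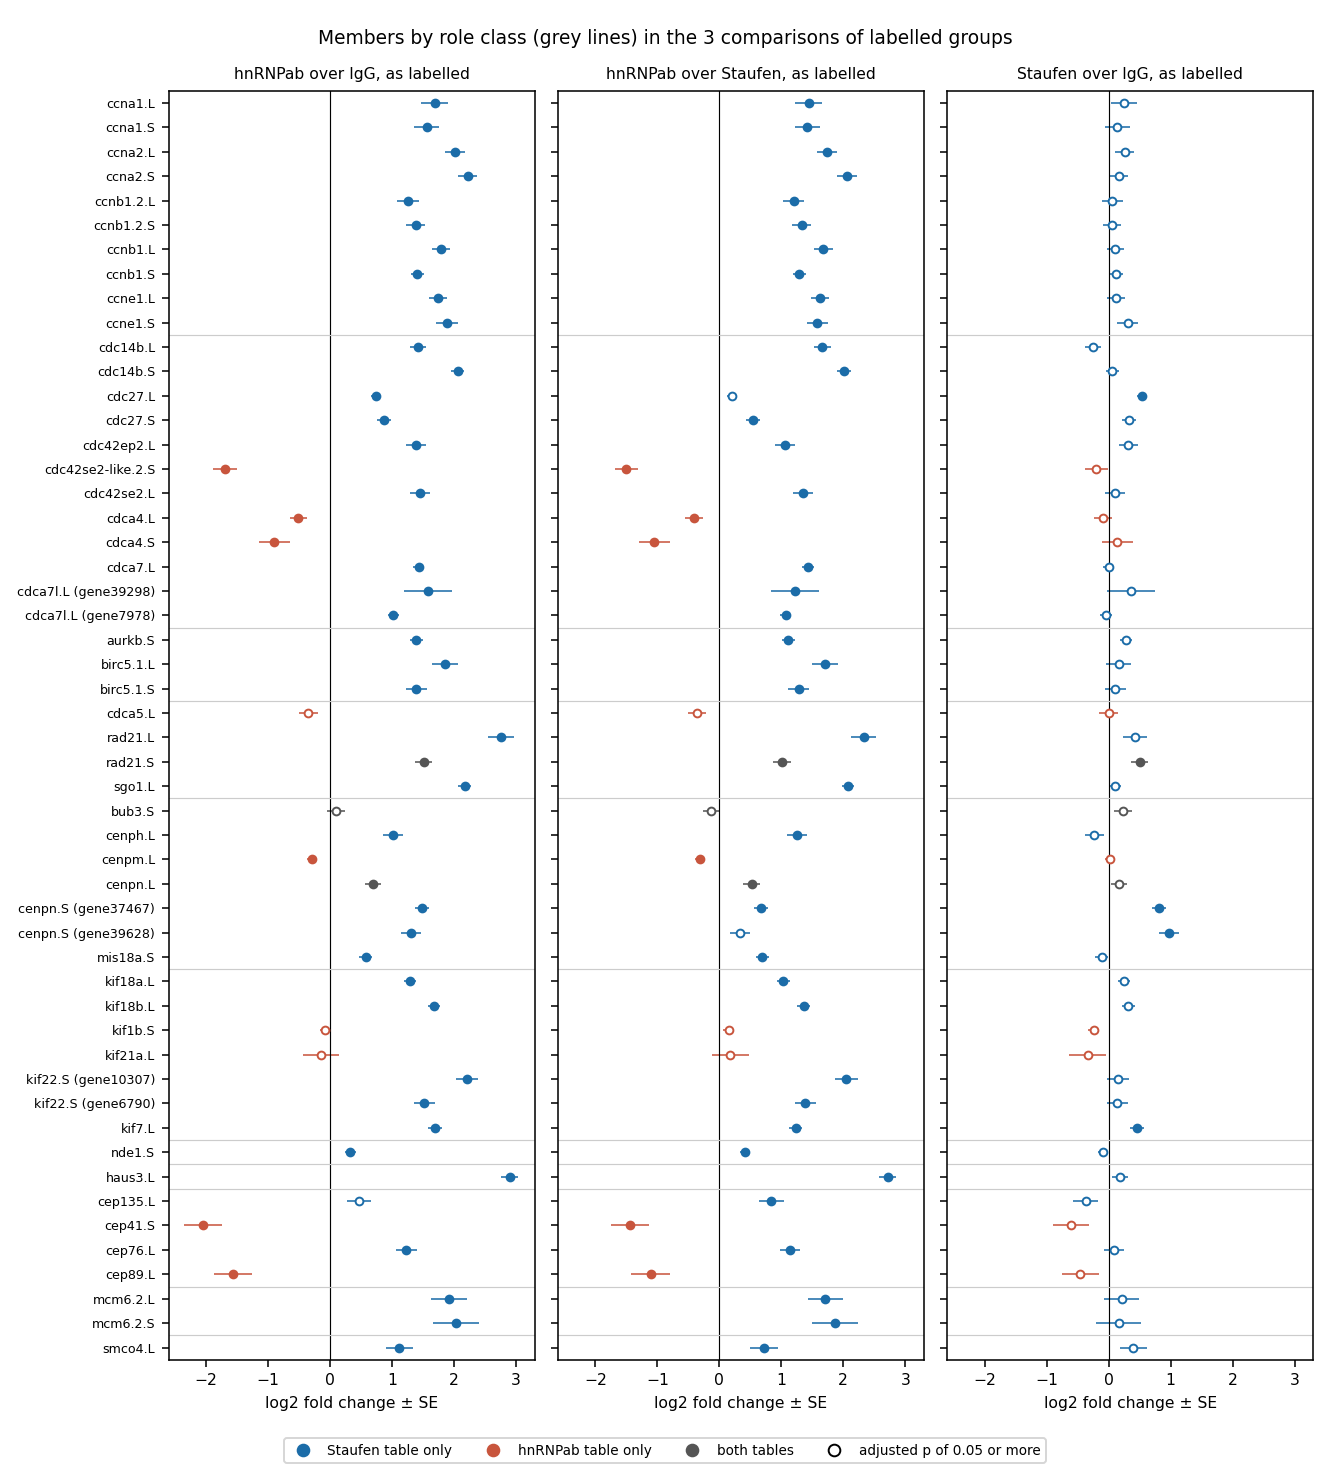
Log2 fold change of 52 members, with its standard error, in the 3 comparisons of labelled libraries. Members are ordered by role, colours give the deposited table, and filled symbols passed an adjusted p of 0.05 without the replicate block. Most members lie above 0 in both comparisons of hnRNPab-labelled libraries and near 0 in Staufen against IgG. There, without the replicate block, 5 of 53 were higher and 0 lower (4.45% and 3.33% of all genes). With the block 23 were higher and 8 lower (19% and 20.5% of all genes).

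The cyclins moved together. Cyclins are the regulatory subunits that switch on cyclin-dependent kinases, cyclin E at entry into DNA replication and cyclins A and B at entry into division. All 10 cyclin members, the .L and .S copies of ccna1, ccna2, ccnb1, ccnb1.2 and ccne1, are in the Staufen list alone. Each of the 10 was higher in hnRNPab-labelled than in IgG-labelled libraries, by 1.26 to 2.22 on the log2 scale with a median of 1.72. So were 83.0% of all tested genes of that list.

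The largest difference among cyclins was that of ccna2.S, a copy of the mitotic and replication cyclin A2. It had 414, 294, 325 and 366 CPM in hnRNPab-labelled libraries, 105, 76.1, 75.4 and 79.3 CPM in Staufen-labelled libraries and 91.7, 63.9, 67.5 and 76.4 CPM in IgG-labelled libraries. Every hnRNPab-labelled library was above all 8 others, while the Staufen and IgG ranges overlapped. The log2 difference was 2.22 ± 0.156 (SE, n = 4 per group) between hnRNPab and IgG, at an edgeR adjusted p of 7.45e-07, and 2.06 ± 0.155 between hnRNPab and Staufen, at 1.44e-06. Between Staufen and IgG it was 0.16 ± 0.15, at an adjusted p of 0.718 (0.0163 with the replicate block).

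Its .L copy had 386, 246, 398 and 390 CPM in hnRNPab-labelled libraries, against 102, 73.4, 89.8 and 88.3 CPM in IgG-labelled libraries. Again the groups did not overlap, although replicate 2 was the lowest of its group in both. Cyclin B1 partners the kinase that triggers meiotic maturation and mitosis, and its copy ccnb1.S, just inside the authors' threshold, had 426, 340, 426 and 423 CPM in hnRNPab-labelled libraries, against 173, 140, 144 and 152 CPM in IgG-labelled libraries. It differed by 1.41 ± 0.107 (SE) at an edgeR adjusted p of 1.35e-06 between hnRNPab and IgG. Between Staufen and IgG it gave 0.12 ± 0.105, at 0.692. The highest counts among the cyclins were those of ccna1.L, a copy of cyclin A1, a cyclin of germ cells and early embryos, which averaged 1081 ± 260 CPM in hnRNPab-labelled libraries, 399 ± 87.5 CPM in Staufen-labelled libraries and 335 ± 87.2 CPM in IgG-labelled libraries (SD, n = 4 each). The ccne1.S copy of cyclin E1 averaged 346 ± 52.0 CPM in hnRNPab-labelled libraries, against 93.1 ± 20.6 CPM in IgG-labelled libraries.

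Against Staufen-labelled libraries all 10 cyclins were higher as well, by 1.20 to 2.06, where 80.0% of all tested genes of their list were higher. Between Staufen-labelled and IgG-labelled libraries their differences were 0.05 to 0.31, each with overlapping groups. The overlap ignores the replicate numbers. Within numbers, 8 of the 10 were higher in 4 of 4 pairs and 0 were higher in 0 of 4. The share of all genes for these pairs was not computed. In the same comparison edgeR without the block called 0 of the 10, where 4.45% of all genes were higher and 3.33% lower. DESeq2 called 0 (8.07% and 7.19% of genes), and 0 had an unadjusted p under 0.05 with edgeR (9.83% and 9.28%). With the replicate block 5 of the 10 were higher and 0 lower, where 19% of all genes were higher and 20.5% lower. Among the 5 was ccne1.S, at an edgeR adjusted p of 5.5e-05.

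**Figure D2:**
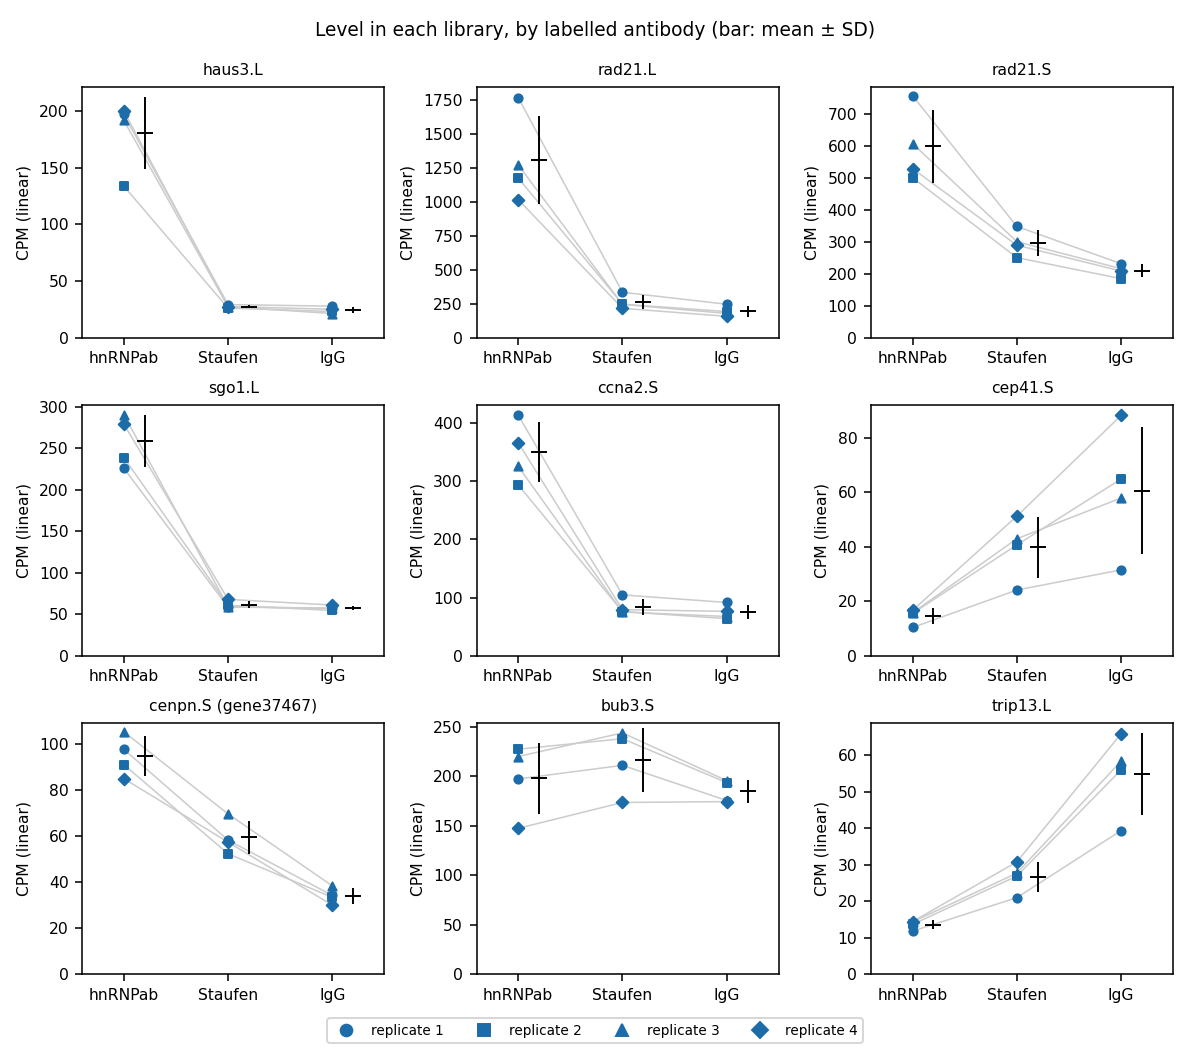
Levels in CPM (y axis, linear, from 0) of chosen members, and of trip13.L, which is not a member, in each labelled library. There is 1 symbol per replicate number, with grey lines joining the same number and a bar for the mean ± SD of each group. Libraries labelled hnRNPab are above all others for haus3.L, rad21.L and ccna2.S, and below all others for cep41.S.

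The chromosomal passenger complex corrects faulty attachments of chromosomes and directs cytokinesis. Its 3 members, the kinase aurkb.S and both copies of the survivin gene birc5.1, were higher in hnRNPab-labelled than in IgG-labelled libraries, by 1.39 to 1.86. They are listed with Staufen alone, a list of which 83.0% of tested genes were higher. The kinase transcript aurkb.S had 107, 91.0, 122 and 105 CPM in hnRNPab-labelled libraries, 50.0, 49.6, 52.2 and 44.4 CPM in Staufen-labelled libraries and 44.6, 37.4, 42.2 and 38.1 CPM in IgG-labelled libraries. The hnRNPab-labelled libraries stood above the other groups, which overlapped at 44.4 and 44.6 CPM. The difference from IgG was 1.39 ± 0.104 (SE) at an edgeR adjusted p of 1.19e-06. The survivin copy birc5.1.L had 315, 173, 228 and 222 CPM in hnRNPab-labelled libraries, against 89.2, 52.5, 62.6 and 53.3 CPM in IgG-labelled libraries, a difference of 1.86 ± 0.213 between groups that did not overlap.

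Cohesin is a ring that encloses sister chromatids. Its subunit rad21 closes the ring and is cut at anaphase, shugoshin (sgo1) protects it at centromeres, and sororin (cdca5) keeps it on chromatin. The rad21.L transcript had 1766, 1174, 1270.0 and 1015 CPM in hnRNPab-labelled libraries, 333, 246, 243 and 215 CPM in Staufen-labelled libraries and 245, 191, 178 and 156 CPM in IgG-labelled libraries. The lowest hnRNPab-labelled library was far above the highest of the other 8. The log2 difference from IgG was 2.76 ± 0.205 (SE) at an edgeR adjusted p of 1.17e-06, and that from Staufen was 2.33 ± 0.202. Between Staufen and IgG, whose ranges overlapped, rad21.L gave 0.43 ± 0.193, at 0.247 (1.33e-08 with the replicate block).

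The second copy, rad21.S, behaved differently in size. It had 757, 500.5, 607 and 529 CPM in hnRNPab-labelled libraries, 348, 250.2, 300.3 and 289 CPM in Staufen-labelled libraries and 231, 184, 216 and 208 CPM in IgG-labelled libraries. No group overlapped another, and Staufen-labelled libraries lay between. The log2 difference from IgG was 1.51 ± 0.142 (SE) for hnRNPab, at an edgeR adjusted p of 7.19e-06, and 0.50 ± 0.14 for Staufen, at 0.0491. The Staufen call was lost when any of 9 of the 12 libraries was left out (adjusted p up to 0.153 without IgG replicate 2), with another normalization (0.053) and without the low-count filter (0.0798). It was kept without Staufen replicate 2, hnRNPab replicate 1 or hnRNPab replicate 2. The difference itself stayed at 0.41 to 0.58 over the 12 libraries left out, and its adjusted p was 2.08e-09 with the replicate block, 0.018 without the 3 libraries numbered 1 and 0.00952 with DESeq2.

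The sgo1.L transcript had 226, 239, 291 and 280 CPM in hnRNPab-labelled libraries, 58.8, 60.9, 59.3 and 68.0 CPM in Staufen-labelled libraries and 57.5, 54.7, 57.1 and 61.2 CPM in IgG-labelled libraries. The hnRNPab-labelled libraries were separate from the other 8, and the Staufen and IgG ranges overlapped. The difference of hnRNPab from IgG was 2.17 ± 0.098 (SE), at an edgeR adjusted p of 3.98e-08. The sororin transcript cdca5.L, listed with hnRNPab alone, went the other way without passing the test. It had 56.2, 65.1, 72.9 and 60.0 CPM in hnRNPab-labelled libraries, against 63.1, 79.0, 89.0 and 93.7 CPM in IgG-labelled libraries. Its difference was -0.35 ± 0.149 with overlapping groups, at an adjusted p of 0.09, of 8.72e-06 with the replicate block, and of 0.024 without IgG replicate 1.

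Kinetochores form on centromeric chromatin marked by a special histone, which mis18a helps to load. The proteins of cenph, cenpm and cenpn belong to the inner kinetochore. Bub3 belongs to the spindle checkpoint. Of these 7 members 5 were higher in hnRNPab-labelled than in IgG-labelled libraries (16.3% of all genes). They include the 4 listed with Staufen alone, a list of which 83.0% of tested genes were higher. Of the 5, cenpn.L and both identifiers named cenpn.S share a symbol. The cenpm.L transcript, listed with hnRNPab alone, was lower (17.4% of all genes, 82.9% of that list), and bub3.S did not pass. Among the 5 were cenph.L, at 1.02 ± 0.157 (SE), and mis18a.S, at 0.58 ± 0.105. The inner kinetochore transcript cenpn.S, identifier gene37467, had 97.5, 90.9, 105 and 84.8 CPM in hnRNPab-labelled libraries, 58.1, 52.2, 69.5 and 57.2 CPM in Staufen-labelled libraries and 34.1, 33.3, 38.3 and 29.9 CPM in IgG-labelled libraries. The 3 groups were separate and stood in that order. The log2 difference was 1.48 ± 0.113 (SE) between hnRNPab and IgG, 0.67 ± 0.111 between hnRNPab and Staufen, and 0.81 ± 0.112 between Staufen and IgG, at an edgeR adjusted p of 0.00108 for the last.

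A second identifier of the same name, gene39628, had 6.84, 6.01, 6.61 and 5.57 CPM in hnRNPab-labelled libraries, 4.29, 4.85, 5.52 and 5.24 CPM in Staufen-labelled libraries and 2.81, 2.19, 2.62 and 2.48 CPM in IgG-labelled libraries. Its Staufen to IgG difference was 0.98 ± 0.162 (SE), at an edgeR adjusted p of 0.00299. Whether the 2 identifiers are separate transcripts of 1 gene or share reads cannot be told from the files.

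The .L copy, cenpn.L, averaged 200 ± 25.7 CPM in hnRNPab-labelled libraries, 140 ± 14.1 CPM in Staufen-labelled libraries and 124 ± 19.3 CPM in IgG-labelled libraries (SD, n = 4 each). It passed between hnRNPab and IgG, at 0.69 ± 0.13 (SE) and an edgeR adjusted p of 0.00132, and gave 0.17 ± 0.13 between Staufen and IgG, at 0.613 (0.0186 with the replicate block). The cenpm.L transcript was lower by a small step, with 37.1, 40.3, 40.4 and 38.8 CPM in hnRNPab-labelled libraries, against 43.0, 49.8, 49.8 and 49.4 CPM in IgG-labelled libraries. Its groups did not overlap, and the difference was -0.29 ± 0.078, at an edgeR adjusted p of 0.0116. The checkpoint transcript bub3.S, listed in both tables, averaged 198 ± 36.1 CPM in hnRNPab-labelled libraries, 216 ± 32.0 CPM in Staufen-labelled libraries and 185 ± 11.4 CPM in IgG-labelled libraries, with overlapping groups. It passed in none of the 3 comparisons without the block. With the block its adjusted p was 0.00345 between Staufen and IgG and 0.0464 between hnRNPab and Staufen.

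Kinesins are motors that walk along or shorten microtubules. The 5 kinesin members of the Staufen list, kif18a.L, kif18b.L, kif22.S under 2 identifiers and kif7.L, were higher in hnRNPab-labelled than in IgG-labelled libraries. So were 83.0% of all tested genes listed with Staufen alone. The chromokinesin transcript kif22.S, identifier gene10307, had 321, 230, 228 and 259 CPM in hnRNPab-labelled libraries, 77.7, 67.6, 49.2 and 55.4 CPM in Staufen-labelled libraries and 72.6, 56.8, 47.8 and 47.9 CPM in IgG-labelled libraries. All 4 hnRNPab-labelled libraries were above the other 8, which overlapped between groups. Its difference from IgG was 2.21 ± 0.184 (SE), at an edgeR adjusted p of 2.77e-06, and the second identifier, gene6790, gave 1.52 ± 0.168.

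The kinesin-8 motor kif18b, which shortens spindle microtubules, had 647, 607, 681 and 568 CPM of its .L transcript in hnRNPab-labelled libraries, 275, 237, 248 and 217 CPM in Staufen-labelled libraries and 205, 195, 211 and 170.2 CPM in IgG-labelled libraries. The 3 groups did not overlap. The hnRNPab to IgG difference of kif18b.L was 1.68 ± 0.101 (SE), at an edgeR adjusted p of 2.49e-07, and its Staufen to IgG difference was 0.32 ± 0.099, at 0.0728 (2.65e-06 with the replicate block).

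The kif7.L transcript encodes a kinesin of cilia and Hedgehog signalling in mammals, and not a spindle motor. It had 92.7, 116, 109 and 94.9 CPM in hnRNPab-labelled libraries, 41.5, 44.2, 50.3 and 39.7 CPM in Staufen-labelled libraries and 29.1, 31.9, 35.6 and 31.4 CPM in IgG-labelled libraries. The 3 groups were separate. Its Staufen to IgG difference of 0.46 ± 0.108 (SE) had an edgeR adjusted p of 0.0224, which was 0.0634 without IgG replicate 2, 0.0595 without IgG replicate 4, 0.0525 without Staufen replicate 2 and 0.0697 without Staufen replicate 3. The adjusted p was 2.77e-07 with the replicate block, 0.036 without the libraries numbered 1 and 0.00168 with DESeq2.

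The 2 kinesin members of the hnRNPab list are kif1b.S and kif21a.L. With edgeR on all 12 libraries and without the block they passed in none of the comparisons, with differences of -0.08 ± 0.086 and -0.15 ± 0.292 (SE) between hnRNPab-labelled and IgG-labelled libraries. With the block the second of these, that of kif21a.L, had an edgeR adjusted p of 0.0241, and both transcripts were lower between Staufen and IgG, at 0.000293 for kif1b.S and 8.32e-06 for kif21a.L. Between hnRNPab and Staufen both were higher with the block, at 0.00894 for kif1b.S and 0.0037 for kif21a.L. Without the block, kif1b.S was lower between Staufen and IgG with DESeq2, at an adjusted p of 0.0411, and with edgeR without the 3 libraries numbered 1, at 0.0414. The replicate-1 library of kif21a.L was low in each group, at 54.4 CPM in hnRNPab-labelled libraries, 45.1 CPM in Staufen-labelled libraries and 58.1 CPM in IgG-labelled libraries, while the other 9 libraries ran from 83.1 to 126 CPM.

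Augmin branches new microtubules from existing ones inside the spindle. Its subunit transcript haus3.L showed the largest difference of the 53 members. It had 197, 134, 192 and 200.3 CPM in hnRNPab-labelled libraries, 29.1, 26.0, 27.3 and 27.4 CPM in Staufen-labelled libraries and 27.8, 23.1, 21.3 and 25.0 CPM in IgG-labelled libraries. The lowest hnRNPab-labelled library was far above every other, and the Staufen and IgG ranges overlapped. The log2 difference was 2.90 ± 0.138 (SE) between hnRNPab and IgG, at an edgeR adjusted p of 5.10e-08, 2.72 ± 0.137 between hnRNPab and Staufen, and 0.18 ± 0.131 between Staufen and IgG, at 0.596. The dynein regulator nde1.S had a small difference by comparison, with 122, 122, 119 and 125 CPM in hnRNPab-labelled libraries, against 86.5, 98.7, 106 and 96.2 CPM in IgG-labelled libraries. That is 0.33 ± 0.082, at an adjusted p of 0.00717.

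Centriole and centrosome transcripts divided along the authors' lists. Between hnRNPab-labelled and IgG-labelled libraries cep76.L, listed with Staufen alone, was higher, as were 83.0% of tested genes of that list. Both cep41.S and cep89.L, listed with hnRNPab alone, were lower, as were 82.9% of that list. The cep135.L transcript, listed with Staufen alone, did not pass. Cep76 limits centriole duplication, and its transcript had 105, 72.0, 76.4 and 86.1 CPM in hnRNPab-labelled libraries, against 44.9, 33.2, 33.8 and 32.7 CPM in IgG-labelled libraries, a difference of 1.23 ± 0.166 (SE) between groups that did not overlap. Cep41 is needed for polyglutamylation of ciliary tubulin. Its transcript cep41.S had 10.4, 15.6, 15.8 and 16.7 CPM in hnRNPab-labelled libraries, 24.1, 40.6, 42.9 and 51.2 CPM in Staufen-labelled libraries and 31.5, 64.8, 57.8 and 88.1 CPM in IgG-labelled libraries.

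For cep41.S, every hnRNPab-labelled library lay below all 8 others, and replicate 1 was lowest in each group. The log2 difference of hnRNPab was -2.05 ± 0.305 (SE) from IgG, at an edgeR adjusted p of 0.000237, and -1.44 ± 0.301 from Staufen, at 0.00274. The Staufen to IgG difference was -0.61 ± 0.292, at 0.29, with all 4 same-numbered Staufen libraries lower and an adjusted p of 4.99e-08 with the replicate block. Cep89, a protein of the appendages that anchor centrioles, had 2.84, 4.81, 2.73 and 5.04 CPM of cep89.L in hnRNPab-labelled libraries, against 7.78, 15.9, 8.56 and 13.5 CPM in IgG-labelled libraries, a difference of -1.57 ± 0.308 between groups that did not overlap. The centriole assembly transcript cep135.L was higher than in Staufen-labelled libraries by 0.84 ± 0.198, at an edgeR adjusted p of 0.00599. Against IgG its difference was 0.47 ± 0.197, at 0.0864, or 0.00196 without the 3 libraries numbered 1 and 1.32e-09 with the replicate block.

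The cdc and cdca symbols hold proteins of several kinds. Of the 12 members in this class 9 were higher (16.3% of all genes) and 3 lower (17.4%) in hnRNPab-labelled than in IgG-labelled libraries. The 9 are listed with Staufen alone, where 83.0% of tested genes were higher. The 3 are listed with hnRNPab alone, where 82.9% were lower. The phosphatase transcript cdc14b.S had 456, 387, 433 and 474 CPM in hnRNPab-labelled libraries, 125, 107, 100.0 and 104 CPM in Staufen-labelled libraries and 122, 98.1, 98.8 and 99.8 CPM in IgG-labelled libraries. It was separate from both other groups, by 2.06 ± 0.108 (SE) from IgG at an edgeR adjusted p of 9.08e-08. Its .L copy gave 1.42 ± 0.135.

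Cdc27 is a subunit of the anaphase-promoting complex, the ubiquitin ligase that ends mitosis. The cdc27.L transcript had 114, 106, 107 and 90.9 CPM in hnRNPab-labelled libraries, 93.1, 91.3, 90.7 and 88.4 CPM in Staufen-labelled libraries and 67.4, 62.1, 64.2 and 57.0 CPM in IgG-labelled libraries. Both antibody groups lay above IgG and overlapped each other. The log2 difference was 0.74 ± 0.085 (SE) between hnRNPab and IgG, at an edgeR adjusted p of 3.46e-05, 0.20 ± 0.084 between hnRNPab and Staufen, at 0.0925, and 0.54 ± 0.085 between Staufen and IgG, at 0.0023. The middle comparison passed without hnRNPab replicate 4, at an adjusted p of 0.031, and with the replicate block, at 0.00181.

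Not every transcript of this class belongs to cell division. The names cdc42ep2.L, cdc42se2.L and cdc42se2-like.2.S are those of effectors of the small GTPase Cdc42, which shapes the actin cytoskeleton, and smco4.L, a single-pass membrane protein, was taken by its name alone. They went in both directions, with cdc42se2-like.2.S listed with hnRNPab alone and the others with Staufen alone. The lowest of the 4, cdc42se2-like.2.S, had 31.1, 43.7, 45.5 and 43.3 CPM in hnRNPab-labelled libraries, 83.7, 122, 132 and 125 CPM in Staufen-labelled libraries and 96.4, 166, 127 and 143 CPM in IgG-labelled libraries. It differed from IgG by -1.70 ± 0.192 (SE), at an edgeR adjusted p of 2.9e-05, while cdc42se2.L gave 1.45 ± 0.165 and cdc42ep2.L gave 1.38 ± 0.161.

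Cdca7 is the partner of a chromatin remodeller, and cdca7.L averaged 187 ± 20.6 CPM in hnRNPab-labelled libraries, against 69.5 ± 3.88 CPM in IgG-labelled libraries (SD, n = 4 each). The cdca4 copies were lower, with differences of -0.51 ± 0.139 (SE) for cdca4.L and -0.90 ± 0.249 for cdca4.S, with edgeR adjusted p of 0.0137 and 0.0141. Against Staufen-labelled libraries and without the replicate block, 3 calls among the members were lost when some single libraries were left out. The call of cdca4.L, a difference of -0.41 at an edgeR adjusted p of 0.0378, was lost without any of 8 libraries, up to 0.0873, and kept without replicate 1 of Staufen or IgG, hnRNPab replicate 3 or IgG replicate 4. That of cdca7l.L, identifier gene39298, higher by 1.22 at 0.0301, was lost without Staufen replicate 1 or 2 or hnRNPab replicate 3 or 4, up to 0.0929. That of smco4.L, higher by 0.72 at 0.0245, was lost without hnRNPab replicate 1 or 3 or Staufen replicate 2 or 4, up to 0.0785. The smco4.L call was also lost without the 3 libraries numbered 1, at 0.0687. With the replicate block all 3 calls were kept. The edgeR adjusted p was then 2.2e-08 for cdca4.L, 1.48e-16 for this cdca7l.L identifier and 3.83e-09 for smco4.L.

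Mcm6 is a subunit of the helicase that opens DNA at replication origins. The mcm6.2.S transcript had 67.4, 63.5, 30.0 and 61.7 CPM in hnRNPab-labelled libraries, 18.6, 20.5, 7.56 and 14.3 CPM in Staufen-labelled libraries and 17.9, 17.04, 6.58 and 13.1 CPM in IgG-labelled libraries. Replicate 3 was lowest in all 3 groups, and the hnRNPab-labelled libraries were still above every other. The hnRNPab to IgG difference was 2.03 ± 0.371 (SE), at an edgeR adjusted p of 0.00109, and mcm6.2.L, at a mean of 7.08 ± 0.973 CPM in hnRNPab-labelled libraries and 1.86 ± 0.727 CPM in IgG-labelled libraries, gave 1.92 ± 0.287.

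X. laevis carries duplicated copies of many genes, the .L and .S homeologs, and reads of near-identical copies can be assigned to the wrong one. The strand setting of the counting is not given, so overlapping and antisense genes are uncertain too. For the 13 pairs in which both copies are members, the log2 ratio of the .L to the .S copy was compared within libraries, which removes the depth of the library but not the length of the transcripts. Among these pairs cenpn.L stands with each of the identifiers named cenpn.S. The rad21 pair moved most. Its log2 ratio was 1.11 ± 0.14 in hnRNPab-labelled libraries, -0.20 ± 0.19 in Staufen-labelled libraries and -0.14 ± 0.25 in IgG-labelled libraries (SD, n = 4 each). The hnRNPab values, 0.94 to 1.23, were separate from the Staufen values, -0.43 to -0.02, and from the IgG values, -0.41 to 0.08.

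The ratio differed by 1.25 between hnRNPab and IgG and by 1.32 between hnRNPab and Staufen, each at p = 0.0286 by exact permutation of the labels (two-sided). That is the smallest p that 4 against 4 libraries can give. Over 39 such tests the adjusted p was 0.0858, so that no homeolog difference passed, and 13 of the 39 had the smallest p. With 4 libraries per group no pair alone could have passed after this adjustment, so that the outcome decides nothing for rad21. The test exchanged labels freely and did not use the replicate numbers. Within numbers, the rad21 ratio was higher in the hnRNPab-labelled library in 4 of 4 pairs against IgG and in 4 of 4 against Staufen. For cenpn the ratio of the .L copy to the .S copy gene37467 was 1.08 ± 0.14 in hnRNPab-labelled libraries, 1.24 ± 0.18 in Staufen-labelled libraries and 1.86 ± 0.31 in IgG-labelled libraries, with the same smallest p for both antibody groups against IgG and a ratio higher than that of IgG in 0 of 4 same-numbered pairs for each. For cyclins the copies stayed closer, and the largest shift against IgG among the 5 cyclin pairs was 0.39, that of ccnb1.

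**Figure D3:**
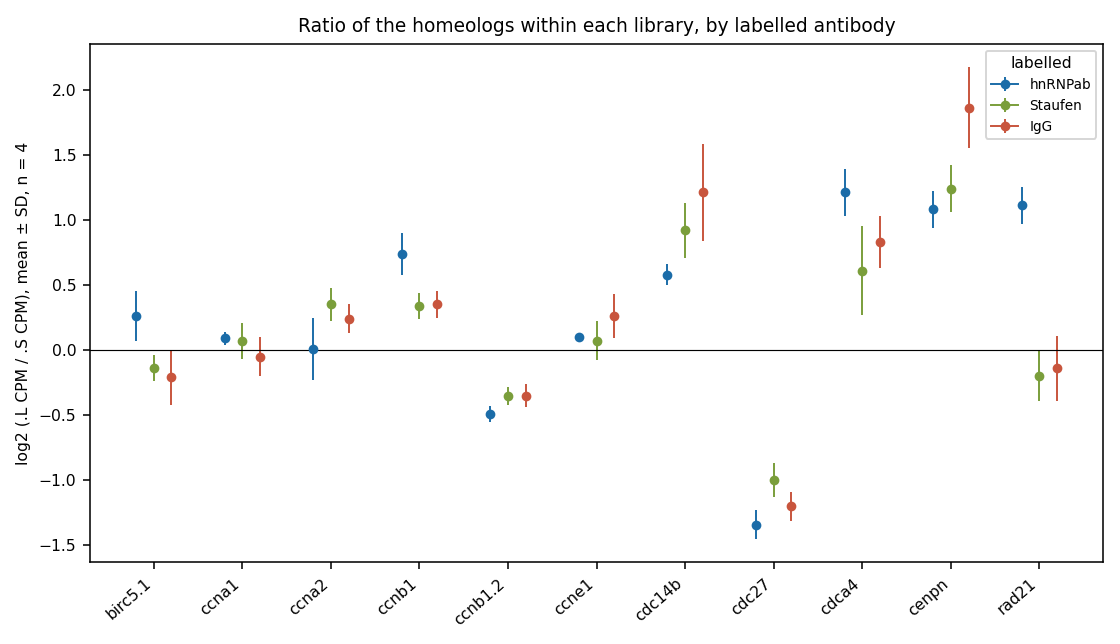
Log2 ratio of the .L to the .S copy for 11 pairs, as the mean ± SD of 4 libraries in each labelled group. The mcm6.2 pair and the cenpn copy gene39628, whose ratios lie outside the axis, are not drawn. The rad21 ratio is 1.11 in hnRNPab-labelled libraries, against -0.14 in IgG-labelled libraries.

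Other genes of the same pathways were looked up from a list of 140 symbols, of which the deposited tables name 36 genes (178 genes of the list are in the reference table). Between hnRNPab-labelled and IgG-labelled libraries edgeR called 22 of the 36 higher and 10 lower, or 61.1% and 27.8%, against 16.3% and 17.4% of all genes. These genes are named only through the authors' lists. All 22 are among the 24 listed with Staufen alone, which is 91.7% where the whole list had 83.0%, and 8 of the 10 listed with hnRNPab alone were lower, where that list had 82.9%. Against Staufen-labelled libraries 19 were higher and 5 lower, or 52.8% and 13.9%, against 16.3% and 16.5% of all genes. All 19 are among the 24 listed with Staufen alone, which is 79.2% where the whole list had 80.0%. All 5 are among the 10 listed with hnRNPab alone, which is 50.0% where that list had 55.6%. Between Staufen-labelled and IgG-labelled libraries 2 were higher and 1 lower, or 5.56% and 2.78%, which is near the 4.45% and 3.33% of all genes. The largest rise was that of racgap1.L, a subunit of the centralspindlin complex of cytokinesis, with 477, 326, 399.6 and 429 CPM in hnRNPab-labelled libraries, 83.6, 71.4, 72.5 and 97.2 CPM in Staufen-labelled libraries and 71.9, 55.8, 53.6 and 62.3 CPM in IgG-labelled libraries. It differed from IgG by 2.74 ± 0.15 (SE), at an edgeR adjusted p of 1.20e-07, racgap1.S by 2.64 ± 0.124 and mapre3.L, which encodes a protein of growing microtubule ends, by 2.52 ± 0.162.

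In the other direction, trip13.L, an ATPase that disassembles the checkpoint complex, had 11.8, 13.6, 14.3 and 14.4 CPM in hnRNPab-labelled libraries, 20.9, 26.9, 27.7 and 30.8 CPM in Staufen-labelled libraries and 39.3, 56.0, 58.4 and 65.9 CPM in IgG-labelled libraries. The groups were separate, with differences of -2.02 ± 0.167 (SE) for hnRNPab and -1.05 ± 0.161 for Staufen from IgG, at edgeR adjusted p of 2.55e-06 and 0.00199. The dynein subunit dync1li1.L was lower in hnRNPab-labelled than in IgG-labelled libraries, with a difference of -1.61 ± 0.121. The 2 genes higher between Staufen and IgG were nusap1.L, a spindle protein, by 0.48 ± 0.093, and stil.L, a centriole assembly factor. The stil.L transcript had 633, 639, 717 and 744 CPM in hnRNPab-labelled libraries, 558, 539, 647 and 716 CPM in Staufen-labelled libraries and 238, 222, 227 and 235 CPM in IgG-labelled libraries. Both antibody groups were above IgG and overlapped each other, with 1.42 ± 0.101 between Staufen and IgG, at an edgeR adjusted p of 3.57e-05, and 0.15 ± 0.099 between hnRNPab and Staufen, at 0.285 (0.012 with the replicate block).

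Genes that act on cohesin went both ways, along with the authors' lists. The cohesin acetyltransferases esco1.L and esco2.S were higher in hnRNPab-labelled than in IgG-labelled libraries by 1.35 ± 0.164 and 1.08 ± 0.15 (SE), and the regulator pds5a.S by 1.06 ± 0.132. All of these are listed with Staufen alone, where 0 of 1974 tested genes were lower in that comparison. Both wapl copies are listed with hnRNPab alone, where 0 of 1482 tested genes were higher. The release factor transcript wapl.S had 75.4, 144, 144 and 148 CPM in hnRNPab-labelled libraries, 151, 294, 323 and 322 CPM in Staufen-labelled libraries and 271, 522, 523 and 584 CPM in IgG-labelled libraries. Replicate 1 had the lowest value in each group, and within each number the hnRNPab-labelled library was lowest and the IgG-labelled library highest. The difference from IgG was -1.90 ± 0.306 for hnRNPab, at an edgeR adjusted p of 0.000429, and -0.80 ± 0.297 for Staufen, at 0.142 (4.32e-15 with the replicate block and 0.042 without IgG replicate 1). Its .L copy gave -0.80 ± 0.294 between hnRNPab and IgG, at 0.0536 (7.34e-16 with the block).

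**Figure D4:**
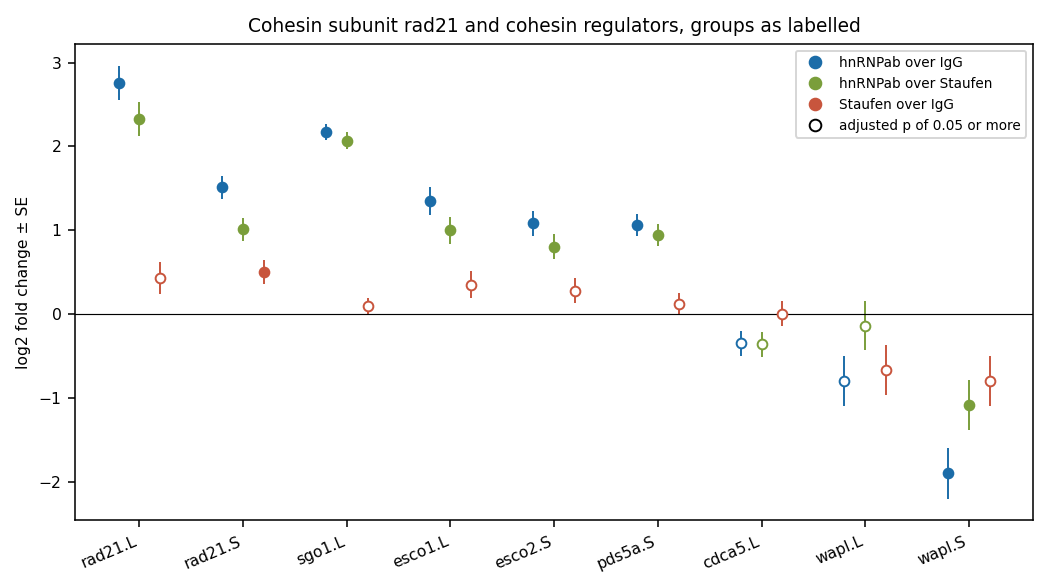
Log2 fold change with its standard error for the cohesin genes among the members and the pathway list, in the 3 comparisons of labelled libraries. Between hnRNPab and IgG, rad21.L is highest at 2.76 and wapl.S lowest at -1.90. The wapl copies and cdca5.L are listed with hnRNPab alone.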

How the data were processed

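Antibody-precipitated RNA from column fractions with L-bodies was sequenced in 12 libraries, as paired reads of 150 bases per the labels. The deposited count files hold raw whole-number read counts per gene. Tools named in the submitters' processing notes are edgeR, HTSeq 0.9.1 and STAR 2.6.1b. The genome build is not given in the sources used here, nor are the annotation and the strandedness of the counting. Tables of enriched genes deposited by the authors give log2 fold changes and log2 CPM, an F score, and a p-value with its adjusted p-value, per the file headers. Gene names came from these tables alone, and no coordinates or sequences were used.

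Counts were tested with edgeR 4.0.16 in R 4.3.3: TMM normalization, the default low-count filter (20803 of 51061 genes), group as the only term over all 12 libraries, and the quasi-likelihood F test, with p-values adjusted by Benjamini-Hochberg over all genes tested at 0.05. The SE is the absolute log2 fold change over the square root of F. Each SE comes from the fit without the block, so that it does not use the pairing of libraries by replicate number. Statements on overlap of groups do not use the numbers either. CPM (counts scaled by the TMM effective library size) were computed from gene counts, and rows for reads outside genes stayed out of library sizes. Scripts were tested on simulated data. Libraries with the same number deviated together (correlations of 0.783 to 0.875 over 12 pairs, against -0.508 to -0.059 over 36 other pairs), so the replicate number was used as a block as an alternative. Within groups no pair of libraries agreed within sampling noise. The other alternatives were DESeq2 1.42.0, its size factors, no filter, and each library left out in turn. Leaving out all libraries numbered 1 was added after seeing the data.

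The members, role classes and pathway list were chosen with earlier results of these data known. Named were, per comparison and class, the 3 called members with the largest fold changes and a mean of at least 5 CPM, or the member with the highest CPM where none was called, homeologs in different deposited tables, the 3 lowest of each table, and the 3 largest rises and falls of the pathway list. Other members were named after their values were seen. Values of some genes that the rule covers are not reported here.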

Additional observations from a re-analysis of the deposited data

Results flagged for a closer look

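Within groups of 4 libraries, 141 groups of named genes were checked for a library far from the other 3, and 13 stood apart, where chance gives about 1 in 20. Of the 13, 9 were in libraries numbered 1. In hnRNPab-labelled libraries, haus3.L was low in replicate 2, at 134 CPM against 192 to 200.3 CPM in the others, as were ccna2.L at 246 CPM (386 to 398) and ccnb1.S at 340.0 CPM (423 to 426). In the same group mcm6.2.S was low in replicate 3, at 30.0 CPM (61.7 to 67.4). Replicate 1 of that group was low for cdc42se2-like.2.S, at 31.1 CPM (43.3 to 45.5), and for wapl.S, at 75.4 CPM (144 to 148).

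In Staufen-labelled libraries, replicate 1 was high for birc5.1.L, at 90.5 CPM (64.1 to 68.2 in the others), and for ccna2.S, at 105 CPM (75.4 to 79.3), and low for wapl.S, at 151 CPM (294 to 323). In IgG-labelled libraries, replicate 1 was high for cdc14b.S, at 122 CPM (98.1 to 99.8), cep76.L, at 44.9 CPM (32.7 to 33.8), and ccne1.S, at 124 CPM (81.8 to 84.4), and low for dync1li1.L, at 48.9 CPM (60.7 to 62.3).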

How the results depend on the processing

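Between Staufen-labelled and IgG-labelled libraries the counts depended on the processing. With the replicate block 3944 genes were higher and 4259 lower, against 925 and 693, and 23 members were higher and 8 lower, against 5 and 0. The count of lower genes was 442 without the low-count filter and 1233 with DESeq2, which called 1 member lower (kif1b.S). Without the libraries numbered 1, 1268 genes and 3 members were lower and 7 members higher. Leaving out single libraries gave 383 to 960 lower genes (383 without IgG replicate 2, 421 without IgG replicate 3, 457 without Staufen replicate 4), 3 to 5 higher members (3 without IgG replicate 2, IgG replicate 4 or Staufen replicate 3) and 0 lower members. With the block, hnRNPab against IgG gave 6505 genes higher and 6937 lower (31.3% and 33.3% of genes), with 43 members higher and 8 lower, and hnRNPab against Staufen gave 6551 and 6880 (31.5% and 33.1%), with 45 and 8. Leaving out single libraries gave 42 to 43 higher members against IgG and 39 to 41 against Staufen. The fits with single libraries left out had no block. Over them, the sign turned at least once for 14 of the 53 members in Staufen against IgG, for 1 against IgG and for 1 against Staufen in the hnRNPab comparisons, and 0 of these were called. Among the members taken by the rule for named genes, these were mcm6.2.S to -0.01 without Staufen replicate 2 and -0.07 without IgG replicate 3 (highest 0.38 over the single libraries left out), and, without Staufen replicate 1, cdc14b.S to -0.02 (highest 0.15), cep76.L to -0.06 (0.22) and birc5.1.S to -0.01 (0.24). Within replicate numbers, Staufen was above IgG in 4 of 4 pairs for mcm6.2.S, cdc14b.S and birc5.1.S and in 3 of 4 for cep76.L. Replicate numbers pair the libraries, and each difference reported with an adjusted p whose call the block changed has the blocked value beside it. The causes were not tested.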
